A study of Mus musculus with 20 samples.

Results

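Tumours grown from U14, a cervical cancer line of the mouse, were compared between animals given both Plerixafor and an antibody against PD-1 (Combination, 5 libraries) and animals given the vehicle solution alone (Solution, 5 libraries). These 10 RNA sequencing libraries are part of a series of 20, in which 5 further tumours received Plerixafor alone and 5 received anti-PD-1 alone. Of 18722 genes in the table, the 12114 with at least 1 FPKM (fragments scaled to gene length and library size) in at least 5 of the 10 libraries were compared, and 6608 were below that filter. Plerixafor is a small molecule that blocks the chemokine receptor CXCR4, and anti-PD-1 blocks the inhibitory receptor PD-1 on T cells. All groups share the U14 line and are labelled as differing in treatment; dose, time after treatment, host strain and sex are not stated in the labels used here. The labels do not tell whether each library is a separate animal, so p-values refer to the variation among libraries, some of which may be technical.

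CXCR4 is the receptor for CXCL12, a chemokine made largely by stromal cells, and the pair guides and retains leukocytes in tissues and tumours. PD-1, encoded by Pdcd1, is engaged by PD-L1, encoded by Cd274, and restrains activated T cells. T cells under lasting stimulation can become exhausted, a state driven by the transcription factor TOX and marked by several inhibitory receptors at once. RNA from a whole tumour mixes cancer cells with leukocytes, fibroblasts and vessels, so the level of a transcript in such a library depends on which cells are present as well as on what each cell makes. In these bulk samples fewer cells of a type and less RNA per cell cannot be told apart.

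Most listed genes of leukocytes, connective tissue and vessels were lower in the Combination tumours than in the Solution tumours, and most were higher among those of cell division, ribosome assembly, protein folding, amino acid and sterol synthesis. By limma, 9297 of 12114 genes were past an adjusted p of 0.05 (76.7%), with 5252 higher in the Combination tumours (43.4%) and 4045 lower (33.4%). The difference exceeded 2-fold for 4855 genes (40.1%), 2486 of them higher (20.5%) and 2369 lower (19.6%), and 4-fold for 678 higher and 697 lower genes. A change of more than 16-fold was called for 60 higher and 12 lower genes. All 5 Combination values lay outside the range of the Solution values for 9220 genes (76.1%), wholly above for 5269 (43.5%) and wholly below for 3951 (32.6%). Over all 12114 genes the median fold change was 0.14 on the log2 scale. Fold changes here are Combination minus Solution on the log2(FPKM + 1) scale, which understates the change of genes with low levels, and they carry a standard error (SE). All counts of a gene group below are to be read against these shares, since most genes were called. A gene near or below 1 FPKM throughout 1 group passed the filter mainly through the other group. The direction of such a gene was largely set by the filter, and its p-value is no separate support.

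**Figure D1:**
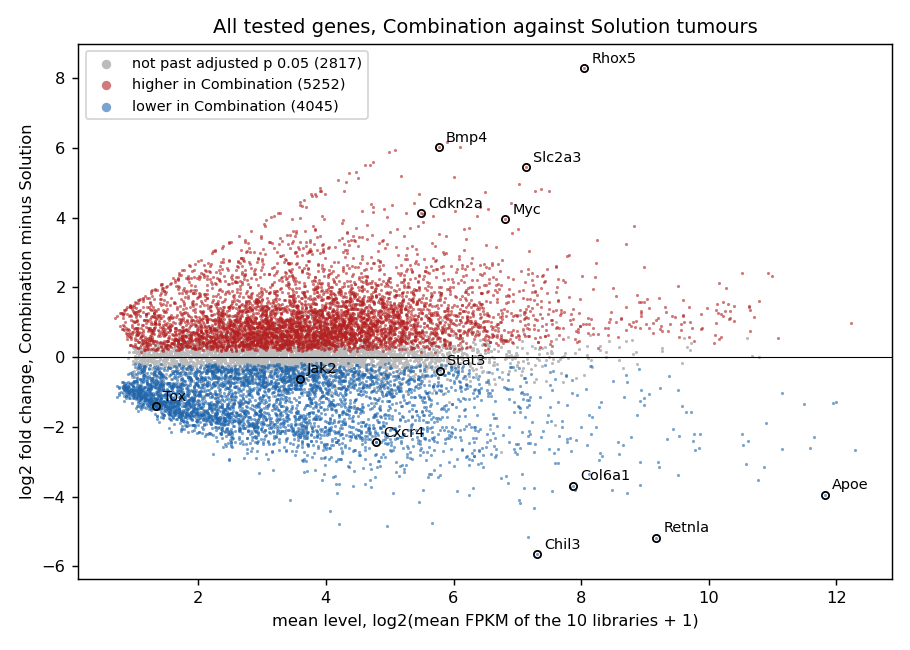
Each point is 1 of the 12114 tested genes, with its mean level in the 10 libraries on the x axis, as log2 of the mean FPKM + 1, and its log2 fold change, Combination minus Solution, on the y axis. Red points (5252 genes) were higher and blue points (4045 genes) lower at an adjusted p of 0.05, and grey points (2817 genes) did not pass; Rhox5 lies highest at 8.28 and Chil3 lowest at -5.66.

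The libraries themselves held 17338691 to 19026511 recovered reads in the Combination group and 18479251 to 19820124 in the Solution group. The first principal component of the 10 libraries held 87.9% of the variance, with the Solution libraries at -71.98 to -67.54 and the Combination libraries at 49.3 to 99.7. The labels name no batch. Markers of skin and muscle marked single libraries: the mature keratinocyte gene Krt10 stood at 67.5 and 65.5 FPKM in Solution 3 and Solution 5 and at 0.771 to 1.11 in the Combination libraries, and 15 tested muscle genes varied from library to library in both groups. Solution 3 often stood apart from the other controls among the genes named here. Without it 9091 genes were called, and 8666 without Solution 3 and 5 together. The simple-epithelial keratin genes Krt8 and Krt18 were present in every library. Krt8 stood at 20.7 to 189 FPKM in the Solution and 296 to 487 in the Combination libraries. These genes do not settle the identity of the labelled line, since of 13 tested epithelial genes 3 rose and 9 fell. Genes of the lists named here beyond the 4 with the smallest p in a list were chosen after their values were seen.

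The genes of the treated pathways were lower in the Combination tumours. Cxcr4 stood at 50.4, 50.99, 23.9, 50.8 and 50.8 FPKM in the Solution libraries and 10.7, 10.5, 8.74, 5.002 and 3.97 in the Combination libraries. The groups did not overlap, and Solution 3 was the low library among the controls. The log2 fold change of Cxcr4 was -2.43 (SE 0.45, limma adjusted p = 9.27e-05). Its ligand gene Cxcl12 had 101, 57.1, 129, 67.2 and 61.2 FPKM in the Solution libraries and 31.9, 29.3, 15.99, 11.8 and 4.24 in the Combination libraries. Every Combination value was below every Solution value, and Combination 5 was lowest. The log2 fold change of Cxcl12 was -2.30 (SE 0.51, limma adjusted p = 4.55e-04). Of 6 genes of the CXCR4 axis, 4 fell and 1 rose. Dpp4, a protease that trims CXCL12, fell by 1.48 on the log2 scale, and Cd74, the invariant chain that also serves as a receptor for the cytokine MIF, fell by 2.29. Mif rose, with 236 to 384 FPKM in the Solution and 691 to 847 in the Combination libraries and a log2 fold change of 1.42 (SE 0.26, limma adjusted p = 8.59e-05). Ackr3, a scavenging receptor for CXCL12, did not pass at -0.04.

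Pdcd1 had 11.4, 14.7, 16.7, 10.5 and 16.96 FPKM in the Solution libraries and 5.25, 5.52, 4.57, 1.73 and 0.608 in the Combination libraries. The groups were apart, with Combination 5 lowest. Its log2 fold change was -1.90 (SE 0.43, limma adjusted p = 6.21e-04). The gene of its ligand, Cd274, had 39.8, 57.9, 43.4, 70.9 and 50.4 FPKM in the Solution libraries and 17.7, 12.4, 12.4, 7.203 and 2.14 in the Combination libraries. All Combination values were below the Solution range and Combination 5 was again the lowest. The fold change of Cd274 was -2.43 (SE 0.64, limma adjusted p = 0.002) on the log2 scale. Tox was a low transcript in all libraries, with 2.04, 2.11, 4.91, 1.699 and 2.75 FPKM in the Solution libraries and 0.576, 0.4395, 0.333, 0.3004 and 0.0992 in the Combination libraries. The controls were all higher than the treated tumours, and Solution 3 was highest among them. Tox gave a log2 fold change of -1.41 (SE 0.19, limma adjusted p = 1.79e-06). No Combination library reached 1 FPKM for Tox, so it passed the filter through the Solution libraries, which set its direction. Cd8a, which encodes a chain of the CD8 coreceptor of cytotoxic T cells, had 18.7, 22.04, 34.5, 17.8 and 24.3 FPKM in the Solution libraries and 8.48, 7.79, 10.01, 3.51 and 0.734 in the Combination libraries. The groups did not overlap. Its log2 fold change was -2.01 (SE 0.45, limma adjusted p = 4.96e-04).

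Jak2 and Stat3, a kinase and a transcription factor that carry cytokine signals, differed much less. Jak2 had 10.7, 12.95, 12.9, 16.7 and 14.8 FPKM in the Solution libraries and 9.604, 8.49, 9.57, 8.06 and 6.78 in the Combination libraries. The highest Combination library was just below the lowest Solution library, Solution 1. The log2 fold change of Jak2 was -0.62 (SE 0.18, limma adjusted p = 0.00424). Stat3 had 53.2, 62.5, 62.7, 65.6 and 64.3 FPKM in the Solution libraries and 54.3, 50.2, 47.5, 43.7 and 39.8 in the Combination libraries. Combination 1 lay above Solution 1, so the groups overlapped, and Solution 1 was well below the other controls. Stat3 did not pass, at -0.39 (SE 0.19, limma adjusted p = 0.0736) on the log2 scale, but it passed after rescaling to TPM (-0.47), with scaling by median of ratios (-0.46), when quantile-normalised (-0.60), with array weights (-0.34) and with only the 10 libraries in the fit (-0.39).

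**Figure D2:**
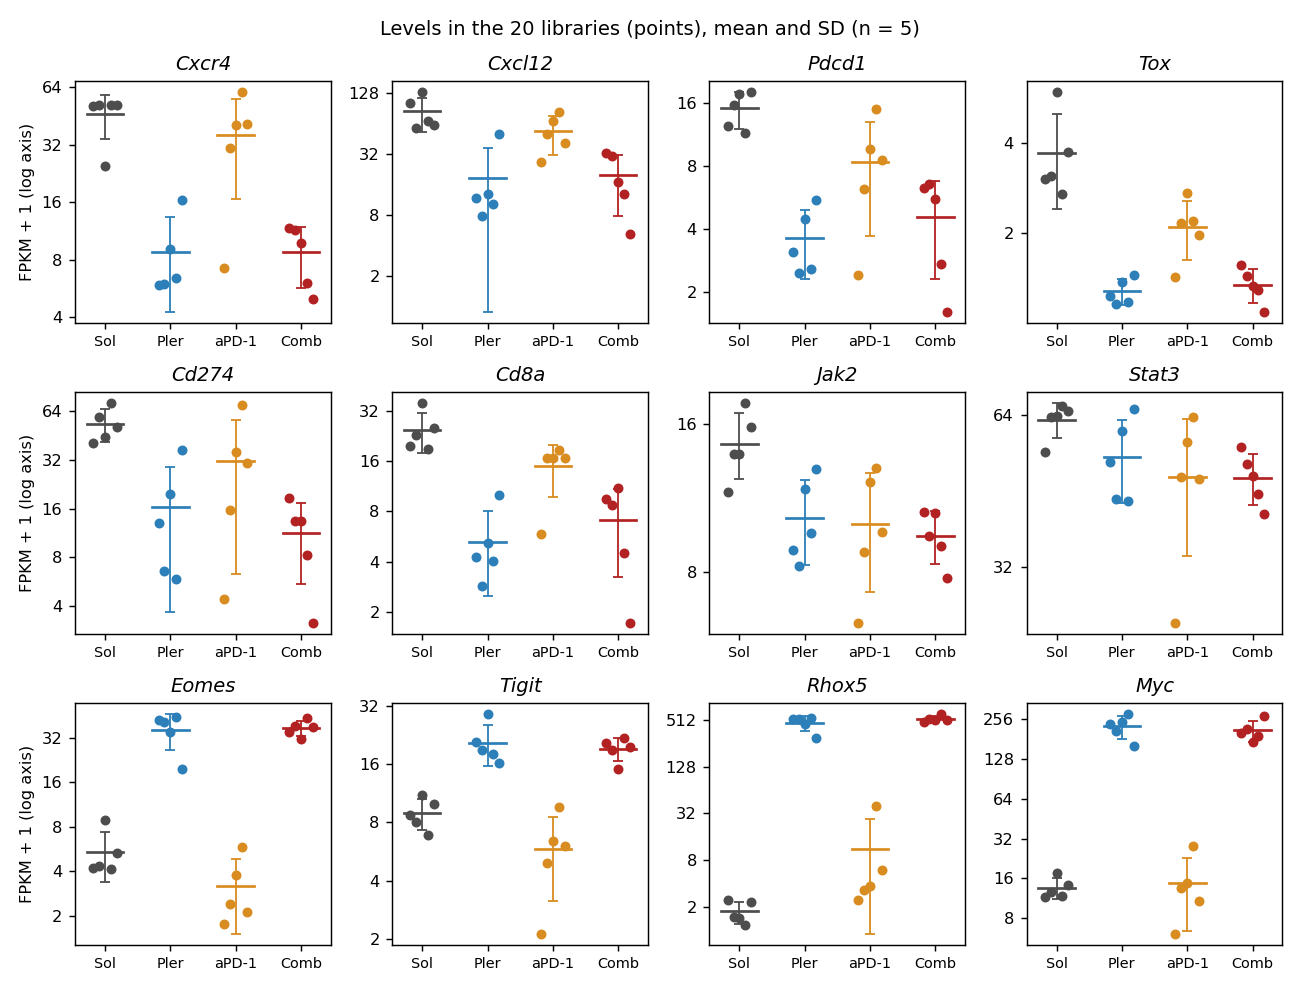
FPKM + 1 on a log2-spaced axis for 12 genes in each of the 20 libraries (points), with the mean (line) and SD (bar) of the 5 libraries of Solution (Sol), Plerixafor (Pler), anti-PD-1 (aPD-1) and Combination (Comb). Cxcr4, Cxcl12, Pdcd1, Tox, Cd274 and Cd8a are low in every Combination library relative to every Solution library, while Eomes, Tigit, Rhox5 and Myc are higher in every Combination library.

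T cell transcripts fell as a group. All 17 tested T cell genes were lower, with a median log2 fold change of -1.86 against 0.14 for all genes, and the summed level of the list took 0.0978 to 0.122% of all FPKM in the Solution libraries and 0.004 to 0.0392% in the Combination libraries. The largest member of this sum, Thy1, is also in the fibroblast list. Thy1 had 129 to 220 FPKM in the Solution and 8.62 to 53.1 in the Combination libraries. Cd3e, a chain of the T cell receptor complex, had 17.7, 16.95, 27.5, 15.4 and 23.7 FPKM in the Solution libraries and 8.78, 7.25, 7.32, 2.35 and 0.547 in the Combination libraries. The highest Combination library was below every Solution library, and Combination 5 was lowest. The signalling chain gene Cd247 (-1.29), the costimulatory receptor gene Cd28 (-1.76) and Ubash3a (-1.50), a damper of receptor signalling, were among those with the smallest p in the list. All 7 tested regulatory T cell genes were lower too, with a median of -1.17, among them Ikzf2 (-1.14) and Lrrc32 (-1.54), which encodes a surface anchor for TGF-beta. Of 7 naive and memory genes 5 fell, led by the interleukin 7 receptor gene Il7r (-2.92), and Id3 rose (1.997). Id3 is also a target of BMP signals and is listed with them below.

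Exhaustion genes did not move one way. Of 17 tested, 11 were lower and 3 higher, with a median of -1.06. The inhibitory receptor genes Lag3 (-2.02), Havcr2 (-1.52) and Ctla4 (-1.64) fell, as did Entpd1 (-2.04), Batf (-2.25) and Id2 (-2.80). Eomes, a T-box transcription factor of T and NK cells and of early embryonic lineages, rose. It had 3.19, 3.32, 7.85, 3.16 and 4.35 FPKM in the Solution libraries and 34.2, 37.5, 30.4, 42.5 and 36.99 in the Combination libraries. The lowest Combination library was several times the highest Solution library, Solution 3. The log2 fold change of Eomes was 2.85 (SE 0.29, limma adjusted p = 7.86e-08). Tigit, another inhibitory receptor gene of T and NK cells, had 7.68, 7.01, 10.1, 5.88 and 8.92 FPKM in the Solution libraries and 19.5, 17.9, 14.1, 20.7 and 18.5 in the Combination libraries. It was higher in every Combination library than in any control, also in Combination 5, where Cd3e stood at 0.547 FPKM. Its log2 fold change was 1.11 (SE 0.28, limma adjusted p = 0.00137). The orphan nuclear receptor gene Nr4a2 was the third to rise, by 0.66.

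Cytotoxic effector genes fell in 13 of 17 cases and rose in none, with a median of -1.46. Granzyme B, a protease that killer cells pass into their targets, is encoded by Gzmb, which had 10.3, 18.4, 23.96, 27.7 and 20.6 FPKM in the Solution libraries and 13.2, 7.23, 7.89, 4.24 and 0.918 in the Combination libraries. Combination 1 lay above Solution 1, so the groups overlapped. Gzmb gave a log2 fold change of -1.67 (SE 0.54, limma adjusted p = 0.00927). Ifng, the gene of the main macrophage-activating cytokine of T cells, had 3.56, 5.501, 9.13, 5.38 and 4.76 FPKM in the Solution libraries and 3.43, 2.61, 2.61, 1.25 and 0.0883 in the Combination libraries. The groups did not overlap, though Combination 1 came close to Solution 1. Ifng passed at -1.26 (SE 0.48, limma adjusted p = 0.0235) and was past the threshold neither without Solution 3 (-1.09, adjusted p = 0.061) nor without Combination 5 (-0.93, adjusted p = 0.0812). Srgn (-2.43), the proteoglycan of secretory granules, Cst7 (-2.41), Fasl (-1.32) and the transcription factor gene Tbx21 (-1.46) had the smallest p. Gzma (-0.54), Gzmc (0.08), Gzmf (-1.32) and Klrg1 (-0.84) did not pass.

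NK cell genes were lower in 7 of 11 cases, including the receptor genes Klrb1c (-1.55), Klrk1 (-1.70) and Klrd1 (-1.88). Ncr1, an NK-restricted receptor gene, fell by 0.85. The 2 that rose were Eomes and Klra4, of the Ly49 receptor family, whose near-identical copies can share reads. Klra4 had 1.72, 0.563, 0.889, 0.768 and 0.494 FPKM in the Solution libraries and 11.3, 13.3, 8.68, 12.1 and 16.6 in the Combination libraries. No Combination library came near the Solution range. Klra4 passed the filter mainly through the Combination libraries, so its rise was largely set by the filter. All 7 tested B and plasma cell genes fell, with a median of -1.55, from Xbp1 (-1.21) to the B cell lectin gene Cd22 (-2.93). Summed FPKM did not fall in every list. The NK cell list took 0.0145 to 0.0214% of all FPKM in the Solution libraries and 0.0138 to 0.0217% in the Combination libraries, with Klra4 and Eomes among its members. The naive and memory T cell list took 0.0317 to 0.0462% of all FPKM in the Solution libraries and 0.0353 to 0.0489% in the Combination libraries. These ranges overlapped. Of the 7 tested naive and memory genes 5 nevertheless fell, and Id3 was the 1 that rose.

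Set against T cell transcripts rather than against all RNA, 2 of 8 genes passed the test. The log2 level of each of 8 genes was taken minus the mean log2 level of Cd3d, Cd3e, Cd3g, Cd2 and Cd5, and the groups were compared by an exact two-sided permutation test over all assignments of the 10 libraries, adjusted over the 8 genes. The smallest p this allows is 0.0079. Relative to T cell transcripts Tigit was higher by 3.25 (exact permutation p = 0.0079, adjusted p = 0.0317) and Ifng by 0.88 (exact permutation p = 0.0079, adjusted p = 0.0317), in 5 of 5 Combination libraries above every Solution library. For Tigit this was fixed in advance. Every Combination library was above every control for Tigit and below every control for each of the 5 T cell transcripts. The Tigit ratio is therefore no separate support. Tox (0.73), Havcr2 (0.62), Gzmb (0.47), Pdcd1 (0.24), Lag3 (0.12) and Cxcr4 (-0.29) did not pass, with adjusted exact permutation p-values of 0.241 to 0.5. A pseudocount of 0.1 FPKM turned the sign for Tox (-0.14) and ended the calls of Tigit (3.71, exact permutation adjusted p = 0.0635) and Ifng (0.59, exact permutation adjusted p = 0.0952). Without Combination 5 neither Tigit (2.78) nor Ifng (0.75) was called, both at an adjusted exact permutation p of 0.0635.

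Macrophage and monocyte genes made up the largest share of FPKM among the immune lists in the controls and fell in all 20 cases, with a median of -2.34. Their summed level was 5.28 to 6.61% of all FPKM in the Solution libraries and 0.286 to 1.26% in the Combination libraries. Apoe, a lipid carrier made by tissue macrophages, was among the most abundant transcripts of the controls, with 7767, 7530.5, 6769.7, 5842 and 5900.1 FPKM in the Solution libraries and 619, 596, 546, 331 and 239.8 in the Combination libraries. The groups were far apart, with Combination 5 lowest. The log2 fold change of Apoe was -3.94 (SE 0.60, limma adjusted p = 9.14e-06). The mannose receptor gene Mrc1 (-2.86) and the engulfment receptor gene Mertk (-2.86) also fell.

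Of 13 genes of alternatively activated macrophages and eosinophils, 12 were lower, and several were among the 10 largest falls by the naming rule. Chil3, a chitinase-like protein of such macrophages, had 386, 152, 414, 353 and 244 FPKM in the Solution libraries and 10.4, 6.83, 14.3, 1.19 and 1.18 in the Combination libraries. Combination 4 and Combination 5 were near 1 FPKM and the groups did not overlap. Chil3 gave the largest fall on the log2(FPKM + 1) scale, -5.66 (SE 1.11, limma adjusted p = 1.58e-04). The order depended on the scale: with a pseudocount of 0.1 FPKM the fold changes were -6.03 for Chil3, -6.13 for Cd5l, -6.80 for Col6a5 and -7.03 for Rnase2a, and with limma-voom -6.12, -6.38, -7.69 and -7.85. Retnla, a secreted product of interleukin 4 signalling, had 1127, 698, 1673, 707 and 1335 FPKM in the Solution libraries and 88.9, 73.4, 46.9, 26.1 and 1.283 in the Combination libraries. It was lower in all Combination libraries and lowest in Combination 5. The eosinophil ribonuclease gene Ear2 had 240.2, 223, 498, 167 and 251.89 FPKM in the Solution libraries and 11.9, 11.2, 11.8, 6.02 and 0.373 in the Combination libraries. Solution 3 stood far above the other controls. The log2 fold changes were -5.18 (SE 1.04, limma adjusted p = 1.95e-04) for Retnla and -5.16 (SE 0.71, limma adjusted p = 2.90e-06) for Ear2. The macrophage survival gene Cd5l (-4.85), Rnase2a (-4.41), of the same ribonuclease family, Siglecf (-2.56) and Ccr3 (-2.48), receptors of eosinophils, also fell. Ear2 and Rnase2a belong to a multigene family and their reads may be split uncertainly.

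Other myeloid lists moved the same way. Neutrophil genes fell in 10 of 11 cases, with Mmp9 (-3.88), the colony-stimulating factor receptor gene Csf3r (-2.53), Mmp8 (-3.26) and Retnlg (-3.13) first by p. Dendritic cell genes fell in 7 of 9, among them Batf3 (-2.48), required for cross-presenting dendritic cells, and Cd209a (-1.70). All 7 mast cell genes fell, including the stem cell factor receptor gene Kit (-1.55) and the histamine-forming enzyme gene Hdc (-1.46). Of 23 lysosomal genes 21 fell and Gaa rose by 0.25. Ctsk, a collagen-degrading protease of osteoclasts and fibroblasts, had 259, 249, 261, 197 and 254 FPKM in the Solution libraries and 24.05, 22.7, 16.6, 8.41 and 4.82 in the Combination libraries. The groups were far apart, with Combination 5 lowest. Its log2 fold change was -4.10 (SE 0.51, limma adjusted p = 7.82e-07). Atp6v0d2 (-4.74), a proton pump subunit of macrophages, fell most in this list.

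Chemokine and complement genes were mostly lower. Of 21 chemokine genes 14 fell and 1 rose. The eosinophil attractant gene Ccl11 (-3.85), Ccl6 (-3.01) and Ccl9 (-2.56) led the falls by p. The interferon-induced T cell attractants Cxcl9 (-0.78) and Cxcl10 (-0.09) did not pass. Cx3cl1, a membrane-bound chemokine of epithelium and endothelium, was the exception, with 5.91, 5.44, 18.1, 5.601 and 4.89 FPKM in the Solution libraries and 74.3, 69.5, 67.5, 85.7 and 62.6 in the Combination libraries. Every Combination library was above Solution 3, the highest control. Its log2 fold change was 3.18 (SE 0.28, limma adjusted p = 1.18e-08). Of 14 complement genes 11 fell, among them properdin, encoded by Cfp (-2.76), the receptor gene C3ar1 (-2.55) and the regulator gene Cd55 (-2.17).

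Antigen presentation fell while the interferon-stimulated genes largely did not pass. All 11 MHC class II genes were lower, with a median of -2.16, including the master regulator gene Ciita (-2.08), the peptide-loading genes H2-DMa (-1.91) and H2-DMb1 (-2.16), and the protease gene Ctss (-3.16). Of 16 MHC class I genes 11 fell and none rose. H2-D1, a classical class I heavy chain, had 2434, 2387, 3010.4, 2453 and 2224 FPKM in the Solution libraries and 743, 589.6, 578, 348 and 165 in the Combination libraries. The Combination values spread over a wider range than the controls but stayed below all of them. The log2 fold changes were -2.53 (SE 0.46, limma adjusted p = 6.69e-05) for H2-D1, -2.20 for H2-K1, -2.33 for H2-Q7, -1.34 for the shared light chain B2m and -2.08 for the class I regulator Nlrc5. The class I heavy chains are close copies of one another, so their separate levels are uncertain. The summed level of the interferon response list took 0.167 to 0.299% of all FPKM in the Solution libraries and 0.0888 to 0.307% in the Combination libraries, and these ranges overlapped. Of its 24 genes 5 were lower, among them Rsad2 (-1.39), Ifih1 (-1.27), Oas2 (-0.84) and Ddx58 (-0.79), and the list median of -0.57 became -0.19 without Combination 5. Oas2 lost its call in turn without Solution 3, 4 or 5 or Combination 3, 4 or 5, with adjusted p-values of 0.0568 to 0.142 by limma. Isg15 (0.13), Ifit1 (0.13), Ifit3 (0.03) and Irf7 (0.09) had fold changes near 0 and did not pass.

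Among 26 JAK-STAT genes 16 fell and 1 rose. Jak1, the partner kinase of interferon and interleukin receptors, had 67.2, 64.3, 69.2, 67.9 and 71.5 FPKM in the Solution libraries and 30.2, 25.4, 26.2, 23.7 and 18.4 in the Combination libraries. The groups were well apart. On the log2 scale it changed by -1.44 (SE 0.18, limma adjusted p = 7.61e-07), a larger fall than that of Jak2. Stat5a (-1.74), Stat5b (-1.997) and Stat4 (-1.77), transcription factors downstream of lymphocyte cytokines, and Ptpn6 (-1.45), a phosphatase of blood cells, were lower. Lif, a cytokine that signals through STAT3, rose (1.29), with 0.472 to 1.02 FPKM in the Solution and 2.39 to 3.45 in the Combination libraries, and its receptor genes Lifr (-1.31) and Il6st (-1.19) fell. With controls near or below 1 FPKM, the rise of Lif was largely set by the filter.

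Connective tissue transcripts were lower as well. All 20 fibroblast and matrix genes were lower, with a median of -2.56, and their summed level was 1.99 to 3.46% of all FPKM in the Solution libraries and 0.235 to 0.626% in the Combination libraries. Pdgfra, a growth factor receptor of fibroblasts, had 26.8, 29.4, 26.4, 22.8 and 21.6 FPKM in the Solution libraries and 6.02, 5.22, 3.47, 2.79 and 1.599 in the Combination libraries. No Combination library came near the controls. The fold change was, on the log2 scale, -2.53 (SE 0.27, limma adjusted p = 1.27e-07). The collagen genes Col6a1 (-3.69), Col6a3 (-2.94) and Col6a5 (-4.78) and the gelatinase gene Mmp2 (-3.74) fell further than most. Clec3b (-4.32), which encodes tetranectin, and the heparin-binding growth factor gene Ptn (-4.15) were among the 10 largest falls. Lpl, the lipoprotein lipase of fat and macrophages, had 323, 260.4, 264, 163 and 227 FPKM in the Solution libraries and 26.1, 13.7, 14.4, 8.92 and 5.83 in the Combination libraries. It was low in every Combination library, with a log2 fold change of -4.19 (SE 0.39, limma adjusted p = 2.02e-08). Fat cell genes fell in 6 of 8 cases, although Plin1 was called only with Solution 1 in the data (-1.64, limma adjusted p = 0.0589 without it).

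Endothelial genes were lower in 12 of 14 cases but by less, with a median of -0.88. The junction genes Pecam1 (-1.29) and Cdh5 (-0.93), the angiopoietin receptor gene Tek (-1.59) and Sox17 (-0.90) had the smallest p, while the vascular growth factor receptor gene Flt1 (0.07) did not pass. Laminin genes went both ways. Lama2 (-2.22) and Lama4 (-2.19), chains of muscle and vessel basement membranes, fell, and Lama5 (1.95), the chain typical of epithelium, and Lamb1 (1.23) rose. No muscle gene of 15 and no erythroid gene of 4 was called by limma. Acta1 ranged over 2.14 to 312 FPKM in the Solution and 3.601 to 381 in the Combination libraries.

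Epithelial genes were split. Of 13 tested, 3 rose and 9 fell. Krt18 had 43.2, 24.4, 193, 44.7 and 35.3 FPKM in the Solution libraries and 444, 476, 625, 491 and 641 in the Combination libraries. Solution 3 was high among the controls but below every Combination library. The log2 fold changes were 3.37 (SE 0.51, limma adjusted p = 8.92e-06) for Krt18, 2.93 for its partner Krt8 and 2.73 for the desmosome gene Perp. Krt5, a keratin of basal squamous cells, was at 0 in Combination 3 and Combination 5 and had 5.399 to 78.6 FPKM in the controls, with a log2 fold change of -3.34 (SE 0.74, limma adjusted p = 4.70e-04). Epcam (-2.58), Cdh1 (-1.91), Krt19 (-3.12) and Cldn4 (-2.36) also fell. In Solution 3 and Solution 5, the libraries with high Krt10, Krt5 stood at 78.6 and 38.4 FPKM, and the part of skin in these falls was not tested. Without either of those libraries Krt10 itself was not called (-1.30 without Solution 3, limma adjusted p = 0.107, and -1.31 without Solution 5, adjusted p = 0.108).

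**Figure D3:**
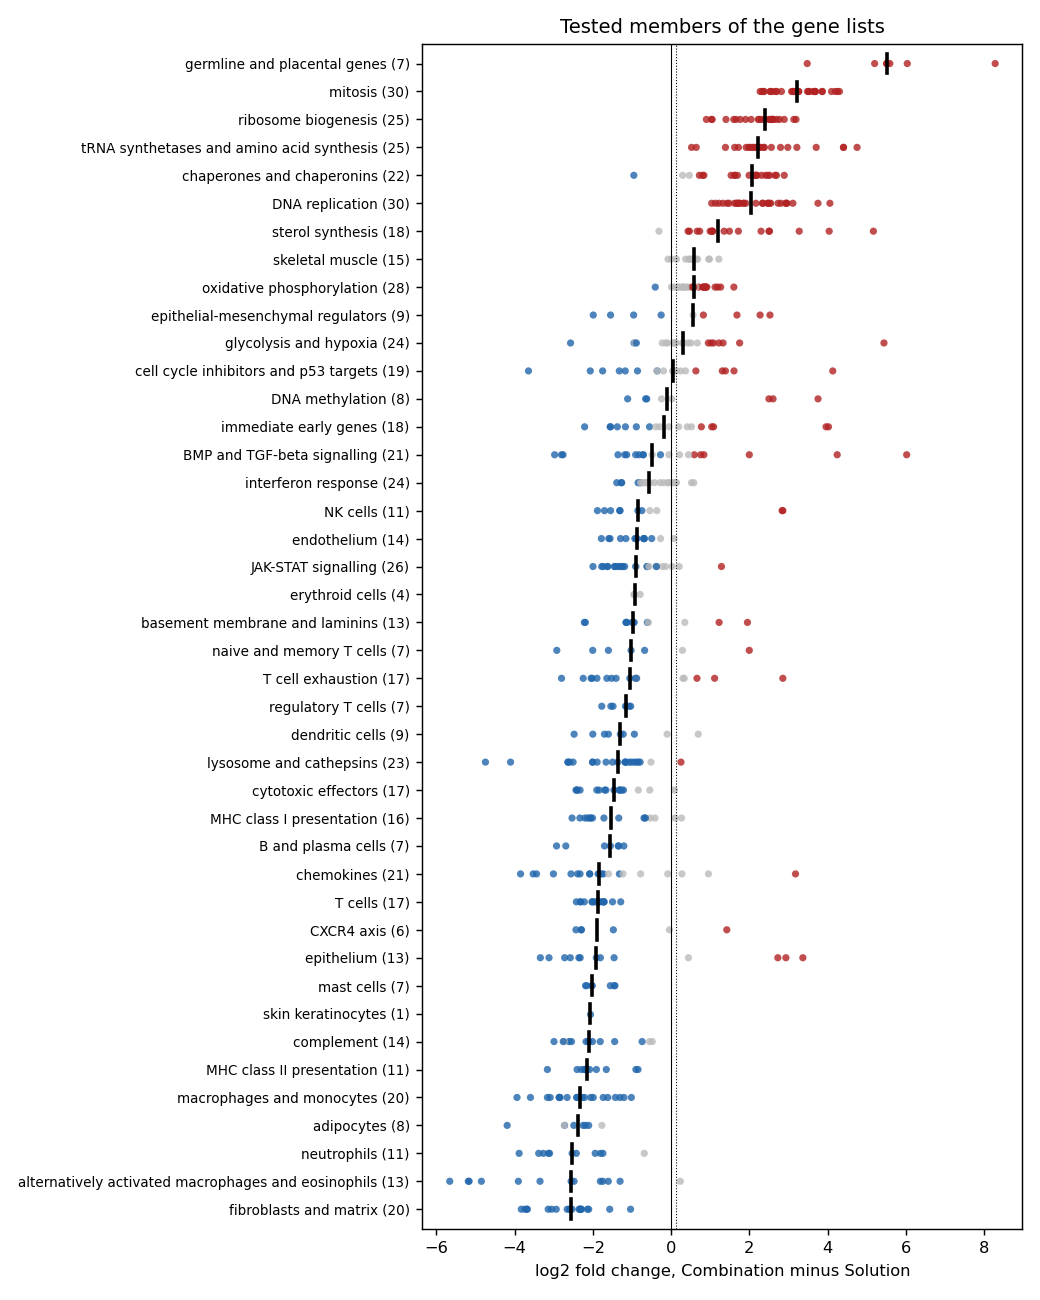
Log2 fold change, Combination minus Solution, of each tested member (points) of the 42 gene lists, with the number of tested members in parentheses and the list median as a black bar. Red and blue points passed an adjusted p of 0.05 and grey points did not; the solid line is at 0 and the dotted line at the median of all genes, 0.14, with medians of 3.23 for mitosis and -2.56 for fibroblasts and matrix. The germline and placental genes shown passed the filter through the Combination libraries, so the direction of their change was set by it. Members of that list below the filter do not enter its median.

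Cell division genes were higher in every Combination library. All 30 mitosis genes and all 30 DNA replication genes rose, with medians of 3.23 and 2.04. The mitosis list made up 0.0242 to 0.0352% of all FPKM in the Solution libraries and 0.303 to 0.378% in the Combination libraries. Aurka, the kinase that builds the spindle poles, had 2.202, 3.15, 2.92, 2.15 and 2.102 FPKM in the Solution libraries and 32.95, 39.1, 31.6, 43.99 and 43.9 in the Combination libraries. No control came near the lowest Combination library. Ttk, the kinase that starts the spindle checkpoint, had 0.733, 1.2, 0.787, 1.01 and 0.797 FPKM in the Solution libraries and 19.6, 23.6, 21.3, 23.1 and 24.8 in the Combination libraries. Anln, a scaffold of the ring that divides the cell, had 1.58, 2.74, 1.899, 2.05 and 1.86 FPKM in the Solution libraries and 53.1, 49.9, 53.4, 62.4 and 63.01 in the Combination libraries. Both were uniformly low in the controls and uniformly high in the Combination tumours. Ttk was near 1 FPKM in every control, so it passed the filter mainly through the Combination libraries. Its rise, counted among those of the mitosis list, was largely set by the filter, and its p-value is no separate support. The log2 fold changes were 3.48 (SE 0.23, limma adjusted p = 2.15e-10) for Aurka, 3.63 (SE 0.24, limma adjusted p = 2.31e-10) for Ttk and 4.25 (SE 0.28, limma adjusted p = 2.75e-10) for Anln. Among replication genes the polymerase gene Pole (2.35), Cdc45 (2.46) and Mcm10 (3.75), parts of the replicative helicase machinery, and the clamp loader gene Rfc4 (2.55) had the smallest p.

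The promoters of these 3 mitosis genes, and of H2-D1 and H2-Q7 from the class I genes that fell, are shown because mitotic promoters commonly carry CCAAT boxes, bound by NF-Y, and CHR elements, bound by the MuvB complexes that silence and activate cell cycle genes. Each is the RefSeq sequence of GRCm38.p6 from 250 bases before to 50 after the gene start, read 5′ to 3′ along the gene. Capitals mark CCAAT and the CHR letters TTTGAA on either strand, so that ATTGG and TTCAAA are the same motifs read on the other strand. Overlaps between motifs were allowed. For the interferon-stimulated response element only an exact letter pattern was searched, on either strand, and it was in none of the 5. Variant forms of this element were not searched. The windows of H2-D1 and H2-Q7 are therefore not shown to lack it. The windows are chr2:172370521-172370820 on the minus strand for Aurka, chr9:83834439-83834738 on the plus strand for Ttk, chr9:22389157-22389456 on the minus strand for Anln, chr17:35262844-35263143 on the plus strand for H2-D1 and chr17:35438905-35439204 on the plus strand for H2-Q7.
Aurka: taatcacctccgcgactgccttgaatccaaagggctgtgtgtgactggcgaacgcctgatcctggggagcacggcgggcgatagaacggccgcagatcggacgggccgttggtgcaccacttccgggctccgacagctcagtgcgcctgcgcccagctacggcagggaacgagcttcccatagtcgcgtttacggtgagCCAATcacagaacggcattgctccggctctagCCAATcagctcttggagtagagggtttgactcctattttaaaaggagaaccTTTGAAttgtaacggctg
Ttk: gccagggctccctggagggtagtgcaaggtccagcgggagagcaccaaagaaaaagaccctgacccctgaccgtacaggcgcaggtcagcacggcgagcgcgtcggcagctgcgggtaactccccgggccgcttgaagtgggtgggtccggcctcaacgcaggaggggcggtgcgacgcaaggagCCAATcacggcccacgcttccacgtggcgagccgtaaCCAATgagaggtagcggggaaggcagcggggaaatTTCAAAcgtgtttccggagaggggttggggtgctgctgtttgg
Anln: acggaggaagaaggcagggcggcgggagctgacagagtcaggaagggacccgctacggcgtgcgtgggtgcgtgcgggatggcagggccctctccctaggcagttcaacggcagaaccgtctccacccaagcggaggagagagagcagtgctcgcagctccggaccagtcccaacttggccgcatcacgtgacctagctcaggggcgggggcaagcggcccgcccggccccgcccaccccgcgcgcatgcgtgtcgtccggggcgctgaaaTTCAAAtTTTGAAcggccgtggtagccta
H2-D1: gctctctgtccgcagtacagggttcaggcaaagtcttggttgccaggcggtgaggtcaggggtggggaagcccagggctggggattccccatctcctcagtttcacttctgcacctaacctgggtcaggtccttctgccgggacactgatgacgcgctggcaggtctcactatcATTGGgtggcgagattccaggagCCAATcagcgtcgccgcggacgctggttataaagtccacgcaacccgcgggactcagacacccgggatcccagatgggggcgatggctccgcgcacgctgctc
H2-Q7: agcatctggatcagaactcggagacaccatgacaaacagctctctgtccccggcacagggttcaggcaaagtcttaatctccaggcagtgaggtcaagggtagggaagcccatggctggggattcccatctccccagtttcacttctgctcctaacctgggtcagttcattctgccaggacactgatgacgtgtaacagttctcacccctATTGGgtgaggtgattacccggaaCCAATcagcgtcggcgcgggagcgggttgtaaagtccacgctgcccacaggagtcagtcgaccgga

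Aurka and Ttk each had 2 CCAAT motifs and 1 TTTGAA, the latter 32 and 7 bases into the transcribed side. Anln had no CCAAT in this window and 2 neighbouring TTTGAA. H2-D1 and H2-Q7 had 2 CCAAT motifs and no TTTGAA. Among the 25 mitosis genes with a promoter in the table, CCAAT was in 76.0%, TTTGAA in 76.0% and both in 64.0%, against 37.9%, 18.1% and 7.12% of all 27018 promoters. In the 9702 tested genes with a promoter the shares were 38.9%, 12.1% and 5.0%. Of the 24 DNA replication promoters 62.5% held CCAAT and 16.7% TTTGAA. Of the 14 class I promoters 78.6% held CCAAT and 7.14% TTTGAA. Of the 21 interferon response promoters 61.9% held the exact pattern searched for the interferon-stimulated response element, against 3.49% of all promoters. These are matches of letters in a window and say nothing of binding.

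Ribosome assembly and protein synthesis genes rose without exception among those listed. All 25 ribosome biogenesis genes were higher, with a median of 2.40. Nop56, a core protein of the particles that methylate ribosomal RNA, had 6.68, 6.001, 7.93, 6.72 and 7.29 FPKM in the Solution libraries and 60.5, 65.1, 65.2, 78.6 and 74.03 in the Combination libraries. The groups were far apart and narrow. The log2 difference came to 3.14 (SE 0.16, limma adjusted p = 1.51e-11). Rrp9 (3.19), Polr1b (2.40), a subunit of RNA polymerase I, and Mybbp1a (2.59) were alike in direction. All 25 genes of tRNA charging and amino acid synthesis rose, with a median of 2.23. Atf4, the transcription factor of the amino acid response, had 99.04, 109, 93.7, 102 and 97.7 FPKM in the Solution libraries and 439, 516, 462, 558 and 497 in the Combination libraries. In log2 units the change was 2.29 (SE 0.14, limma adjusted p = 6.66e-11), and the serine synthesis gene Psph rose by 2.98. Of 22 chaperone genes 19 rose, among them the subunits Tcp1 (2.16) and Cct5 (2.15) of the chaperonin that folds actin and tubulin, and Hsp90ab1 (2.42). The stress-inducible Hspa1a fell (-0.95) and its near-identical copy Hspa1b rose (0.84), so that reads may be shared between them.

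Sterol synthesis rose in 17 of 18 genes. Sqle, the squalene-oxidising enzyme of cholesterol synthesis, had 1.76, 1.93, 5.37, 1.82 and 2.41 FPKM in the Solution libraries and 118, 117, 125, 148 and 112 in the Combination libraries. Solution 3 was the highest control and the groups were far apart. The log2 fold changes were 5.17 (SE 0.27, limma adjusted p = 1.85e-11) for Sqle, 3.27 for Fdps and 2.50 for Idi1, enzymes of the same pathway. Mitochondrial respiration genes moved less, with 15 of 28 higher, 1 lower and a median of 0.58, led by Cyc1 (1.60) and the electron carrier Cycs (1.27).

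Glycolysis and hypoxia genes did not form one group. Of 24, 7 rose, 3 fell and 14 did not pass. Slc2a3, a high-affinity glucose transporter of neurons and embryo, had 5.33, 4.46, 4.53, 5.49 and 6.51 FPKM in the Solution libraries and 256, 217, 237, 302 and 351 in the Combination libraries. The groups were far apart, and the log2 fold change was 5.44 (SE 0.31, limma adjusted p = 4.68e-11). Ndrg1 (1.75), the angiogenic factor gene Vegfa (1.33) and Ldha (1.22) rose, while the hypoxia markers Car9 (-0.95) and Egln3 (-2.57) fell, and Slc2a1 (0.33) and Hk2 (0.67) did not pass.

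The largest rises were in genes nearly silent in the controls. Rhox5, a homeobox gene of the X chromosome active in testis, ovary and placenta, had 1.43, 0.498, 0.426, 0.174 and 1.301 FPKM in the Solution libraries and 476, 531, 510.2, 605 and 514 in the Combination libraries. No control reached 2 FPKM, and every Combination library was far above. The log2 fold change was 8.28 (SE 0.51, limma adjusted p = 9.60e-11). Gchfr, a regulator of tetrahydrobiopterin synthesis, had 1.37, 0.946, 0.168, 0.401 and 0.572 FPKM in the Solution libraries and 103, 113, 110.5, 139 and 117 in the Combination libraries. Pitx1, a homeobox gene of the hindlimb and pituitary, had 0.202, 0.0407, 0.0795, 0.0569 and 0.0966 FPKM in the Solution libraries and 65.2, 65.9, 60.9, 75.3 and 61.3 in the Combination libraries. Neither gene reached 2 FPKM in any control. Their log2 fold changes were 6.16 (SE 0.36, limma adjusted p = 5.40e-11) and 5.93 (SE 0.32, limma adjusted p = 2.31e-11). Gchfr and Pitx1 passed the filter mainly through the Combination libraries, so their rise was largely set by it. Dcaf8l (5.59), the meiosis gene Tex11 (5.50), the placental hormone genes Prl2c2 (6.03) and Prl2c5 (5.51), and Cox7b2 (5.29) completed the 10 largest rises with Bmp4 and Slc2a3. The Prl2c genes are near-identical copies and their separate levels are uncertain. Of 16 germline and placental genes in the table, 7 passed the filter and 9, such as Ddx4, Dazl and Sycp3, did not. The 7 passed it through the Combination libraries, so that their rise was set by the filter, and the list was drawn up with the rise of several members known.

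Bmp4, a morphogen of the TGF-beta family, had 0.654, 0.342, 0.796, 0.343 and 1.098 FPKM in the Solution libraries and 100.4, 92.97, 94.5, 90. and 154 in the Combination libraries. Combination 5 stood above the other treated libraries, and all controls were near 1 FPKM or below. On the log2 scale the difference was 6.02 (SE 0.27, limma adjusted p = 4.52e-12). Bmp4 passed the filter mainly through the Combination libraries, so the direction was largely set by it. Id1, which BMP receptors induce through SMAD proteins, had 6.23, 8.63, 8.72, 9.78 and 8.31 FPKM in the Solution libraries and 154, 157, 175, 181 and 209 in the Combination libraries. Id1 too was high in all Combination libraries, at 4.24 (SE 0.20, limma adjusted p = 5.00e-12). Id3 (1.997), Id4 (0.59), Smad7 (0.75) and the receptor gene Bmpr1a (0.84) rose, whereas the BMP antagonist gene Grem1 (-2.98), Tgfbr2 (-2.76), Tgfbr3 (-1.36) and Tgfb2 (-1.19) fell. In all, 6 of 21 BMP and TGF-beta genes rose and 11 fell.

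Growth control genes were mixed. Myc, a driver of ribosome and nucleotide synthesis, had 10.6, 11.7, 16.6, 10.8 and 13.2 FPKM in the Solution libraries and 202, 217, 171, 191 and 270.5 in the Combination libraries. The groups were far apart. The log2 change amounted to 3.96 (SE 0.28, limma adjusted p = 4.95e-10). Of 18 immediate early genes 5 rose and 7 fell: Fosl1 (4.02) rose with Myc, and Jun (-1.55), Atf3 (-2.21) and Egr1 (-0.89) fell. Of 19 cell cycle inhibitors and p53 targets 5 rose and 7 fell. Cdkn2a, the locus of the tumour suppressors p16 and ARF, had 3.89, 5.002, 2.56, 9.46 and 1.402 FPKM in the Solution libraries and 79.2, 73.4, 88.2, 90.4 and 87.8 in the Combination libraries, and Cdkn1c, an imprinted inhibitor of the cell cycle, had 37.4, 31.7, 31.1, 35.6 and 28.5 FPKM in the Solution libraries and 3.18, 2.79, 3.45, 0.463 and 0.378 in the Combination libraries. The former was high and the latter low in every Combination library. Their log2 fold changes were 4.13 (SE 0.40, limma adjusted p = 3.41e-08) and -3.64 (SE 0.38, limma adjusted p = 9.33e-08). The p53 target genes Cdkn1a (-1.32) and Ccng1 (-0.86) fell, and Mdm2 (0.05) and Bax (0.24) did not pass. The median of this list changed sign with scaling, between 0.04 as deposited and -0.11 after quantile normalisation.

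Of 8 DNA methylation genes 3 rose, the maintenance methyltransferase gene Dnmt1 (2.60), its recruiter Uhrf1 (3.75) and the remodeller Hells (2.50), and 3 fell, the de novo methyltransferase gene Dnmt3a (-1.11), the demethylation gene Tet2 (-0.62) and Mbd2 (-0.65). Among 9 regulators of the epithelial-mesenchymal transition, Twist1 (2.52), Twist2 (1.68), Foxc2 (2.27) and Snai1 (0.82) rose and Snai2 (-1.99), Zeb2 (-1.55), Prrx1 (-0.96) and Zeb1 (-0.25) fell.

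The 5 Combination tumours differed among themselves in the genes that fell more than in those that rose. Of 19 lists of immune and stromal genes all 19 had their highest mean level in Combination 1 and their lowest in Combination 5, and in 16 of them the Combination libraries ranged more widely than the Solution libraries. The T cell list had mean log2 levels of 2.898, 2.701, 2.74, 1.83 and 0.704 in the Combination libraries and 4.04, 3.97, 4.29, 3.82 and 4.29 in the Solution libraries. The gap between Combination 1 and Combination 5 was larger than the gap between Combination 1 and the lowest control. The mitosis list had 5.19, 5.38, 5.23, 5.47 and 5.48 in the Combination libraries and 1.902, 2.32, 2.15, 2.11 and 2.09 in the Solution libraries. Across the 6 growth lists the range among Combination libraries was 0.257 to 0.408, against 0.682 to 2.45 across the 19 immune and stromal lists. The 19 were a selection and do not stand for every list of host tissue. The basement membrane and laminin list, not among them, was lowest in Combination 2. Its range was 0.222 in the Combination and 0.236 in the Solution libraries. The lysosome list, also not among them, had a Combination range of 0.665. Among the 4045 lower genes, 2820 (69.7%) were lowest in Combination 5 and 2405 (59.5%) highest in Combination 1. Among the 5252 higher genes, 2412 (45.9%) were highest in Combination 5 and 2359 (44.9%) lowest in Combination 1. The median SD of the lower genes was 0.248 in the Combination and 0.177 in the Solution group on the log2 scale, and that of the higher genes 0.124 and 0.113.

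**Figure D4:**
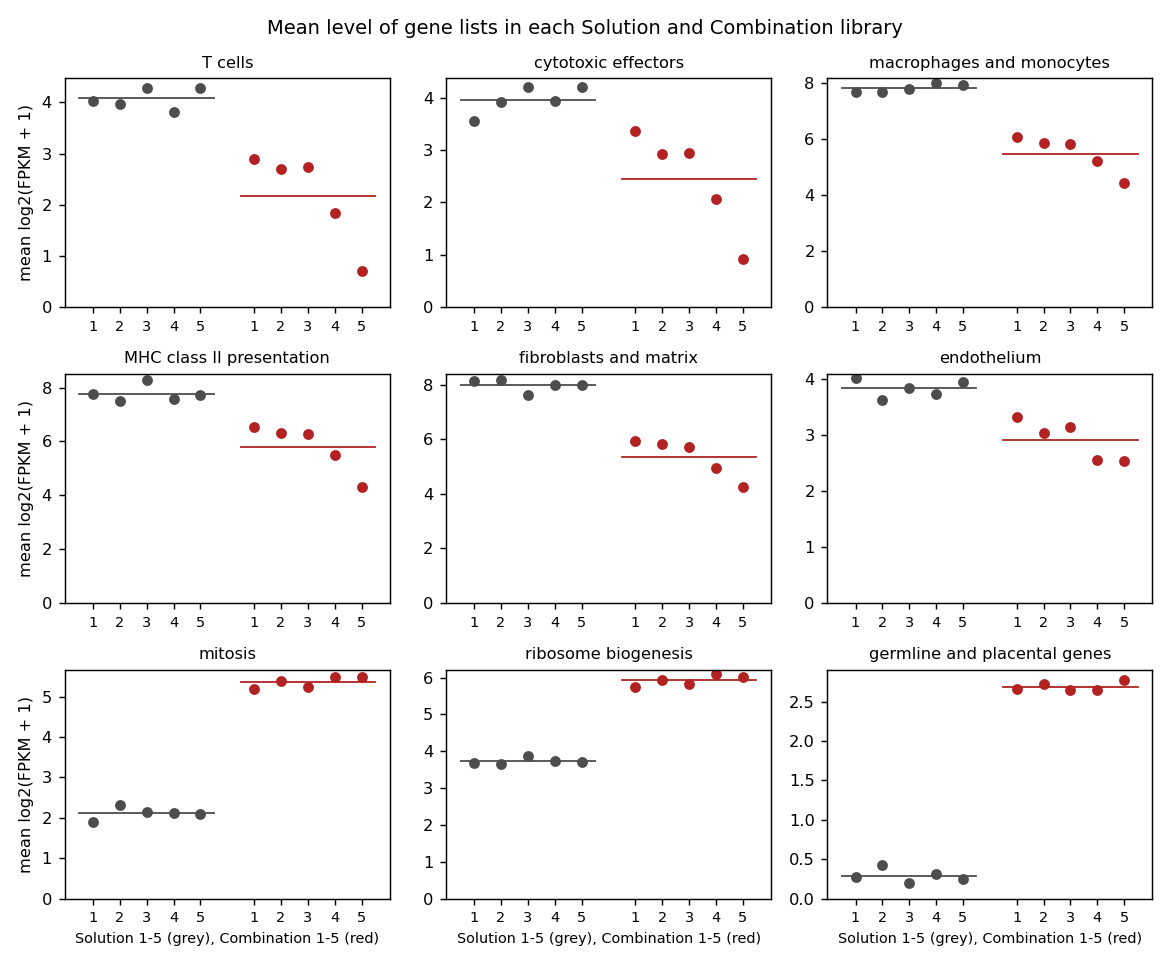
Mean log2(FPKM + 1) over the members of 9 gene lists that are in the table, for each Solution (grey) and Combination (red) library, with the group mean as a line. The T cell list stands at 2.90 in Combination 1 and 0.704 in Combination 5, while the mitosis list lies between 5.19 and 5.48 in the Combination libraries.

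Whether anti-PD-1 added to Plerixafor was asked by setting Combination against Plerixafor alone. No gene passed an adjusted p of 0.05 by limma (0 of 12114, 0%), 60 genes (0.495%) had an unadjusted p under 0.05, and the smallest adjusted p was 1. Limma-voom on recovered reads also called 0, with 60 at an unadjusted p under 0.05. Limma with array weights called 4, with 2989 at an unadjusted p under 0.05. Limma on only the Combination and Plerixafor libraries called 0, with 217. The 0.495% is below the share expected with no difference. The shared estimate of spread includes the anti-PD-1 libraries, whose median SD was 0.361 on the log2 scale. It was 0.138 for Combination and 0.190 for Plerixafor, so the main test may be conservative here. The median size of the log2 fold change was 0.0653, against 0.797 for Combination minus Solution. The 95% interval of the difference lay within 1 on the log2 scale for 11322 genes (93.5%) and within 0.5 for 8024 (66.2%). Of the 4855 genes that differed more than 2-fold from Solution, 4319 (89.0%) had such an interval within 2-fold of Plerixafor. For single genes the intervals were wider where libraries varied: the difference was 0.04 (95% interval -0.92 to 0.99) for Cxcr4, 0.29 (95% interval -0.64 to 1.23) for Cd8a, 0.21 (95% interval -0.70 to 1.11) for Pdcd1 and -0.41 (95% interval -1.74 to 0.92) for Cd274. It was 0.07 (95% interval -0.32 to 0.46) for Tox, -0.12 (95% interval -0.52 to 0.28) for Stat3 and -0.10 (95% interval -0.68 to 0.49) for Myc. For the growth genes Pole and Tcp1 it was -0.09 (95% interval -0.34 to 0.17) and 0.14 (95% interval -0.10 to 0.38). A gene that did not pass is not thereby shown to be equal. Among the 5 genes with the smallest p on each side were Mettl18, Zfp771 and Acat3 on the higher side, with 0.28 (95% interval 0.11 to 0.45) for Mettl18, and Vmn2r96, Tet2 and Zbtb38 on the lower side, with -0.28 (95% interval -0.47 to -0.09) for Tet2. In each of the 42 lists, no member was called in either direction. In recovered reads, Combination and Plerixafor libraries differed by a median chi-square per gene of 1.57 to 21.3 over 25 pairs (median 4.08), and the Combination libraries among themselves by 1.84 to 9.31 over 10 pairs (median 4.16). Combination and Solution libraries differed by 46.8 to 94.5.

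**Figure D5:**
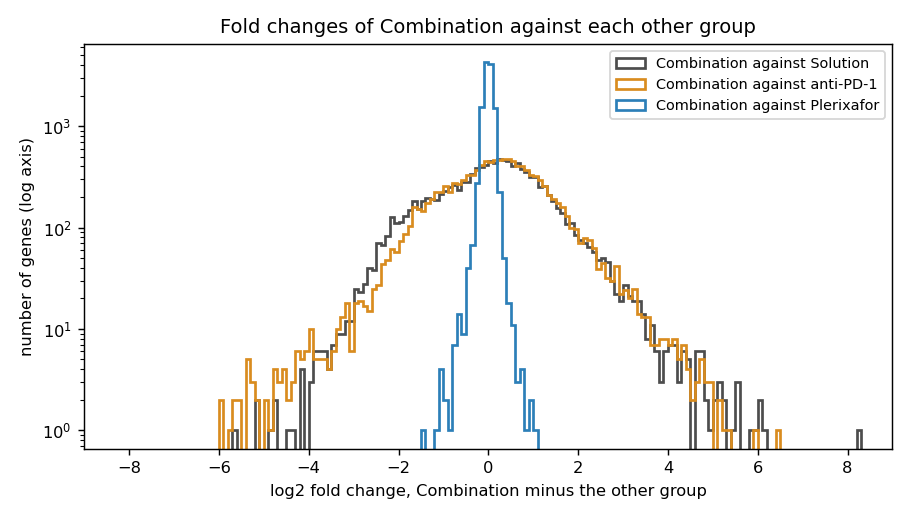
Number of genes (log axis) by log2 fold change of Combination against Solution (grey), against anti-PD-1 (orange) and against Plerixafor (blue), in bins of 0.1, over the 12114 tested genes. The differences from Plerixafor run from -1.40 to 1.04, those from Solution from -5.66 to 8.28 and those from anti-PD-1 from -5.98 to 6.48.

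Combination against anti-PD-1 alone asks what Plerixafor changed beside the antibody. By limma 9013 genes (74.4%) passed, 5465 higher (45.1%) and 3548 lower (29.3%). With only the Combination and anti-PD-1 libraries in the fit 8132 passed, 5042 higher and 3090 lower. The median SD was 0.361 in the anti-PD-1 and 0.138 in the Combination libraries on the log2 scale. The spread shared by all 4 groups may therefore make the main test too lenient here. Over all genes the median fold change was 0.19 as deposited and 0.024 with median-of-ratios scaling, on the log2 scale. Rhox5 (6.48), Lgals7 (5.93), Gchfr (5.37), Slc2a3 (5.20) and Sqle (5.19) rose most on the log2 scale. With median-of-ratios scaling 4771 genes were higher and 4301 lower, and with quantile normalisation 4766 and 4283. The anti-PD-1 libraries were uneven. Library 1 differed from the other 4 of its group by a median chi-square per gene of 26.8 to 63.2, against 3.7 to 13.8 among those 4, and without it 9727 genes were called, 5492 higher and 4235 lower. The mean log2 level of the muscle list was 11.4, 9.85, 8.52, 3.13 and 10.2 in the anti-PD-1 libraries and 4.39, 1.73, 5.504, 0.798 and 4.59 in the Combination libraries. Anti-PD-1 library 4 was within the Combination range and the others were above it. The largest falls were in muscle genes, led by Pvalb (-5.98), a calcium buffer of fast muscle, and Atp2a1 (-5.94), its calcium pump, whose mean levels were 2014 ± 2182 and 3432 ± 4253 FPKM (SD, n = 5) in the anti-PD-1 libraries. The part of muscle tissue in the anti-PD-1 libraries in these differences was not tested. All 17 T cell genes and all 20 fibroblast genes were lower in Combination than in anti-PD-1 tumours, with medians of -1.23 and -2.21. Cxcr4 was lower by 1.84 and Tox by 0.62 on the log2 scale, both past the threshold, while Pdcd1 and Cd274 did not pass.

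The interaction of both agents, which asks whether the antibody acts differently when Plerixafor is also given, was not called for any gene by limma (0 of 12114, 0%). An unadjusted p under 0.05 was reached by 1775 genes (14.7%), and the smallest adjusted p was 0.241. Limma-voom called 0 as well, with 1550 genes at an unadjusted p under 0.05. Limma with array weights called 3891 genes, and leaving out anti-PD-1 libraries 3 or 4 gave 2 and 786, against 0 with all libraries. Among the 5 genes with the smallest p on each side were Cdcp3 (1.87), Cdh1 (2.40) and Trim29 (1.93) on the higher side and Itga7 (-1.48), Npnt (-1.36) and Igf2 (-2.66) on the lower side, on the log2 scale. Combination against Solution, Plerixafor against Solution and anti-PD-1 against Solution share their Solution libraries, and for Cxcr4 the log2 fold changes were -2.43, -2.47 and -0.59 in that order.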

How the data were processed

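RNA of 20 mouse tumours was sequenced, 5 libraries for each of 4 groups assigned from the sample titles, and the authors deposited 1 table of FPKM values. HISAT2 2.1.0, HTSeq 0.11.2, StringTie 2.1.4, DESeq2 1.28.1 and build GRCm39 are named in the submitters' processing notes without a role. The tool that made the FPKM values, its filters and its use of strand are not given in the sources used here, so overlapping and antisense genes may share reads.

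From the deposited FPKM values, log2(FPKM + 1) was tested with limma 3.58.1 in R 4.3.3 with trended empirical Bayes, 1 model holding the 4 groups of 20 libraries and leaving 16 residual degrees of freedom. The 12114 of 18722 genes with at least 1 FPKM in at least 5 of the 10 Combination and Solution libraries entered, at a Benjamini-Hochberg adjusted p of 0.05. Read steps in the FPKM values gave whole reads for 18722 of 18722 genes within a tolerance of 0.02, and these gave the depths and the limma-voom alternative. The fit was tried on simulated reads in which few genes changed and every group had the spread of the Solution libraries. These data differ on both points, so the trial does not give the error rates here.

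Members and lists were chosen with earlier results of these data known. Named genes are Cxcr4, Cxcl12, Pdcd1, Cd274, Tox, Jak2, Stat3 and Cd8a, the 10 largest called rises and falls with a mean of at least 2 FPKM in the higher group, leaving out Gm and Rik models, up to 4 members of each list with the smallest p, and 5 on each side of the other comparisons. Promoters are RefSeq sequences of GRCm38.p6, matched by symbol for 9702 tested genes, with coordinates of that build only. Alternatives covered the pseudocount, filters, scaling, a replicate block, array weights, limma-voom, the libraries in the fit and leaving out each library. Some list members are counted but not reported here by name.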

Additional observations from a re-analysis of the deposited data

Results flagged for a closer look

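The 225 genes named in the text and the 42 gene lists were searched in the Solution and the Combination group for 1 library that stood apart from the other 4 by Dixon's test at the 95% level. Chance alone gives such a library in about 1 in 20 groups. It was found in 43 of the 450 sets of gene values (9.56%) and in 1 of 84 sets of list levels. Of the 43, 26 were in Solution 3.

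Among immune genes Solution 3 had FPKM levels of 170.1 for Cd5l, 7387 for Cd74, 33.9 for Cst7, 18.1 for Cx3cl1, 23.9 for Cxcr4, 498 for Ear2, 7.85 for Eomes, 41.3 for H2-DMa, 208 for H2-DMb1, 1885 for H2-K1, 18.9 for Kit, 34.2 for Lag3, 146 for Retnlg and 18.6 for Stat5a. Cxcr4 was lower there than in the other controls, with a gap to the nearest library of 0.977 of the range of the group. Among epithelial genes it had 25.6 for Cdh1, 37.9 for Cldn4, 56.7 for Epcam, 193 for Krt18, 311 for Krt19 and 189 for Krt8, each above the other 4 controls. Its other FPKM levels that stood apart were 89.1 for Cct5, 7.94 for Cdcp3, 27.2 for Egr1, 6.58 for Id4, 5.37 for Sqle and 1.37 for Zeb1.

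In Combination 1 the levels that stood apart were, in FPKM, 0.324 for Cdcp3 and 27.2 for Rfc4. In Combination 2 the level that stood apart was, in FPKM, 0.0159 for Dazl. In Combination 3 the level that stood apart was, in FPKM, 48.01 for Fosl1. In Combination 4 the levels that stood apart were, in FPKM, 4.08 for Krt5 and 0.288 for Sycp3. In Combination 5 the levels that stood apart were, in FPKM, 154 for Bmp4, 0.446 for Cdh1 and 5.55 for Nr4a2. In Solution 1 the levels that stood apart were, in FPKM, 144 for Atp2a1, 117 for Pvalb, 53.2 for Stat3, 3.02 for Zbtb38 and 81.7 for Myh4. In Solution 4 the levels that stood apart were, in FPKM, 197 for Ctsk and 14.8 for Rsad2. In Solution 5 the level that stood apart was, in FPKM, 16.8 for Hdc. The mean log2 level of the chemokine list was 2.80 in Combination 5, with a gap of 0.712 of the range. The cause of these deviations was not tested.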

How the results depend on the processing

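For Combination against Solution the number of genes called stayed within 1.5 times of 9297 under every alternative run. It was 6859 of 8908 tested with a filter of 5 FPKM and 11632 of 18722 with no filter, against 9297 of 12114. These counts rest on different sets of tested genes and do not compare directly. With 1 library left out it was 8888 to 9167. Against Plerixafor, 4 genes were called with array weights and 0 under every other alternative run. The interaction, with 0 genes called, gave 3891 with array weights and 0 to 786 with 1 library left out, 786 without anti-PD-1 replicate 4 and 2 without anti-PD-1 replicate 3. The cause was not tested.

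Same-numbered libraries deviated from their group means with correlations of -0.24 to 0.20 for Solution, -0.76 to 0.50 for Plerixafor and -0.27 to 0.30 for anti-PD-1 against Combination. These correlations are over all tested genes and cannot show whether a replicate number stands for a shared batch. With the replicate block 9190 genes were called against Solution, 0 against Plerixafor, 8885 against anti-PD-1 and 0 for the interaction.

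With a pseudocount of 0.1 FPKM the ratio to T cell transcripts was -0.14 for Tox, 3.71 for Tigit and 0.59 for Ifng. With 1 library left out the ratio ranged over 2.78 to 3.49 for Tigit, 0.75 to 0.97 for Ifng and 0.27 to 0.69 for Gzmb, which passed without Solution replicate 4 (0.69, exact permutation adjusted p = 0.0212). The median of the DNA methylation list was 1.13 with a filter of 5 FPKM. Muscle genes, none of them called, changed sign. With array weights the log2 fold change was -0.22 for Pvalb, -0.23 for Myh4 and -0.076 for Tnnt3. Without Solution libraries 3 and 5 it was -0.67 for Pvalb, -0.064 for Atp2a1, -0.25 for Myh4, -0.18 for Tnnt3 and -0.12 for Myh1. With 1 library left out the log2 fold changes ranged over -0.60 to 1.05 for Pvalb, -0.10 to 1.62 for Atp2a1, -0.22 to 1.36 for Myh4, -0.17 to 1.49 for Tnnt3 and -0.014 to 1.16 for Myh1.

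Of 209 named genes, 7 lost their call and 6 gained one under some alternative. Depth was similar between libraries, and 6608 genes below the filter were not tested.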
